A study of Homo sapiens with 6 samples.

Results

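The 14-3-3 proteins are a family of small acidic proteins that work as dimers and bind other proteins at phosphorylated serines and threonines. By binding, they hold a client in the cytoplasm, hide its active site or keep it from other partners. In human cells they are encoded by SFN, the gene of the sigma form (stratifin), and by the paralogs YWHAB, YWHAE, YWHAG, YWHAH, YWHAQ and YWHAZ. SFN is an epithelial gene and a known transcriptional target of p53, and its protein is known for keeping cyclin B and CDK1 out of the nucleus after DNA damage, which holds cells before mitosis. The YWHA genes are expressed in most tissues and serve as general adaptors of kinase signalling.

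The genes were chosen by symbol from the probe table of the platform, as 7 named genes of the family, and SFN was put first with its values after cisplatin already known. Of the 7 genes, 5 had a named probe set among 7713 genes with one, and these 5 were measured by 6 of the 8746 probe sets that are not controls. The array signal of YWHAE and YWHAG was not analysed here. Because the difference between cisplatin and control arrays entered the choice, the values of that difference are given for SFN and the YWHA genes as a description, and nothing is read from how many of them passed a threshold.

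The RNA came from A549 cells, an established line of human lung adenocarcinoma, hybridised to 6 short-oligonucleotide arrays. For 3 arrays, called cisplatin 1 to 3, the cultures were exposed for 1 hour to cisplatin, a platinum compound that crosslinks DNA, at 50 µM. For control 1 to 3 they spent the same hour in growth medium without drug. Both groups were then washed and kept for 10 hours without drug, and the series description places the samples in 3 independent experiments. Each value is a deposited intensity of a probe set, on a linear scale, and intensities of different probe sets cannot be set against each other. In bulk RNA of this kind, a change in the number of expressing cells and a change of RNA per cell cannot be told apart.

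The arrays were alike in brightness, with median intensities of 57.2 to 67.2. On the first principal component of the tested probe sets (39.9% of the variance) control 1 and cisplatin 2 stood apart, at 14.4 and 17.1 against -12.4 to -1.69 for the other arrays. The ACTB control probe sets gave a 3′/5′ ratio, a measure of RNA integrity and labelling, of 2.20 to 2.98 on the control arrays and 2.67 to 3.67 on the cisplatin arrays. Mean control intensities of the simple-epithelium keratins were 2243 for KRT7, 2145 for KRT8, 5810 for KRT18 and 131 for KRT19. Those of the epithelial adhesion genes EPCAM and CDH1 were 33.3 and 37.3. The surfactant gene SFTPB had 29.7 and NKX2-1, another epithelial marker, 95.8. The group means of the tested blood, endothelial and stromal markers ran from 27.4 to 102.0. These values come from different probe sets, so no level of one gene against another is read from them. Over the 8 epithelial markers the summed intensity was 9002 to 11330 on control and 8606 to 11268 on cisplatin arrays. KRT7, KRT8 and KRT18 made up most of this sum. Of 10 markers of blood, endothelial and stromal cells, 4 were too dim to be tested, and the other 6 had a summed intensity of 317 to 337 on control and 317 to 371 on cisplatin arrays.

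SFN signal was higher on all 3 cisplatin arrays than on any control array, with both of its probe sets. On the probe set 33322_i_at the controls 1 to 3 read 3108, 2722 and 2728, and the treated arrays 1 to 3 read 3668, 3744 and 3943. The means were 2853 ± 221 and 3785 ± 142 (SD, n = 3 each). The lowest cisplatin array thus lay above the highest control array, and control 1 was the array nearest to the treated ones. On the probe set 33323_r_at the controls 1 to 3 read 2104, 1872 and 1924, and the treated arrays 1 to 3 read 2544, 2555 and 2722, with means of 1967 ± 121 and 2607 ± 99.7. Again control 1 was the highest control and cisplatin 3 the highest treated array.

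**Figure D1:**
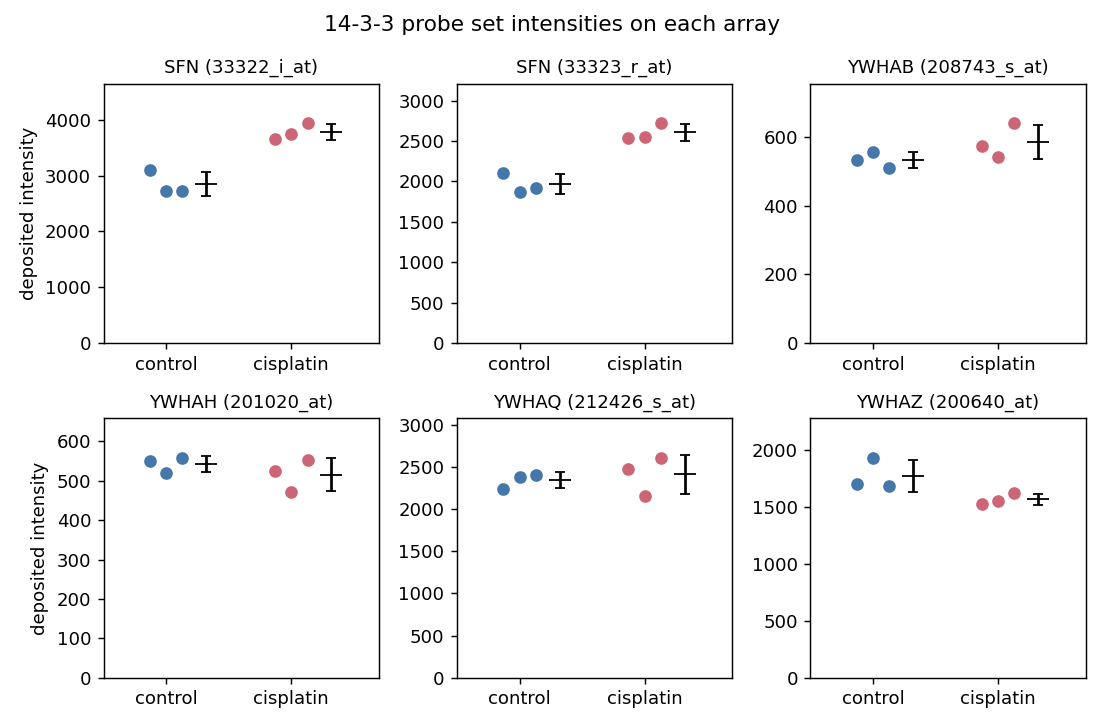
Deposited intensity (linear, from 0) of the 6 probe sets of the 14-3-3 genes on each of 3 control arrays (blue) and 3 cisplatin arrays (red), with the group mean and SD in black. For both SFN probe sets every cisplatin point lies above every control point, for YWHAZ every cisplatin point lies below, and for YWHAB, YWHAH and YWHAQ the groups overlap.

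The size of the difference was the same on both SFN probe sets. The log2 fold, taken after an offset of 11.8 was added to every intensity, was 0.41 (SE 0.07, 95% interval 0.25 to 0.56) on 33322_i_at and 0.41 (SE 0.07, 0.25 to 0.57) on 33323_r_at. These are folds of 1.33 and 1.32. The ratio of the intensities of the 2 probe sets stayed between 1.42 and 1.48 over the 6 arrays, and both ranked the arrays in the same order (Pearson's r = 0.996 and Spearman's rho = 1.00 over 6 arrays that share their RNA). Both are annotated to the same gene and share each hybridisation, so they are not replicates of each other. How specific their probes are was not examined here. Of all 6559 tested probe sets, 96.6% had a lower log2 fold than 33322_i_at and 96.5% a lower one than 33323_r_at. For the paralogs described below that share was 71.3% for YWHAB, 49.9% for YWHAQ, 22.9% for YWHAH and 9.62% for YWHAZ.

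Control 1, the control array with the highest SFN signal, also had the lowest ACTB 3′/5′ ratio, 2.20 against 2.98 and 2.95 on control 2 and 3. Cisplatin 1, with the highest ratio (3.67), had the lowest SFN signal of the treated arrays. With the ratio as a covariate the log2 fold of SFN was 0.46 on 33322_i_at and 0.45 on 33323_r_at, and without control 1 it was 0.47 and 0.45. Without control 1 and cisplatin 2, the arrays apart on the first component, it was 0.48 and 0.47.

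Among the paralogs, YWHAZ was the gene whose groups did not overlap, and its direction was opposite to that of SFN. YWHAZ encodes the zeta form, an adaptor of growth and survival signalling. Controls 1 to 3 read 1707, 1934 and 1685, and treated arrays 1 to 3 read 1531, 1556 and 1624, or 1775 ± 138 against 1570 ± 48.1. The gap between the groups was narrow, and control 2 stood above the other control arrays. The log2 fold was -0.17 (SE 0.08, 95% interval -0.35 to 0.00), and without control 2 it was -0.11.

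YWHAB encodes the beta form, which is known to bind RAF kinases. For this gene the controls 1 to 3 read 534, 557 and 510, and the treated arrays 1 to 3 read 574, 543 and 641, with means of 534 ± 23.8 and 586 ± 50.2. Cisplatin 2 fell inside the range of the controls, so the groups overlapped. The log2 fold was 0.13 (SE 0.10, 95% interval -0.10 to 0.36), and it was 0.06 without cisplatin 3, the highest array, and also 0.06 with the arrays centred on their medians.

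YWHAQ encodes the theta form, also called tau. Its intensity on controls 1 to 3 was 2232, 2382 and 2406, and on treated arrays 1 to 3 it was 2478, 2151 and 2607, with means of 2340 ± 94.0 and 2412 ± 235. The cisplatin arrays spread over the whole range of the controls, with the lowest and the highest of all 6 values among them. The log2 fold was 0.04 (SE 0.08, 95% interval -0.15 to 0.22), and its sign depended on the scaling, being -0.03 with the arrays centred on their medians and 0.03 after quantile normalization. It was 0.12 without cisplatin 2 and -0.02 without cisplatin 3.

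YWHAH encodes the eta form. The control intensities, 1 to 3, were 551, 519 and 558 and the treated ones 525, 471 and 552, with means of 543 ± 20.9 and 516 ± 41.1. The groups overlapped, cisplatin 3 lying among the controls and cisplatin 2 below all of them. The log2 fold was -0.07 (SE 0.10, 95% interval -0.31 to 0.16), and it was -0.01 without cisplatin 2, -0.12 without cisplatin 3 and -0.15 with the arrays centred on their medians. YWHAB, YWHAQ and YWHAH thus had their lowest treated value on the same array, cisplatin 2, although the median intensity of that array (67.2) was the highest of the 6.

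**Figure D2:**
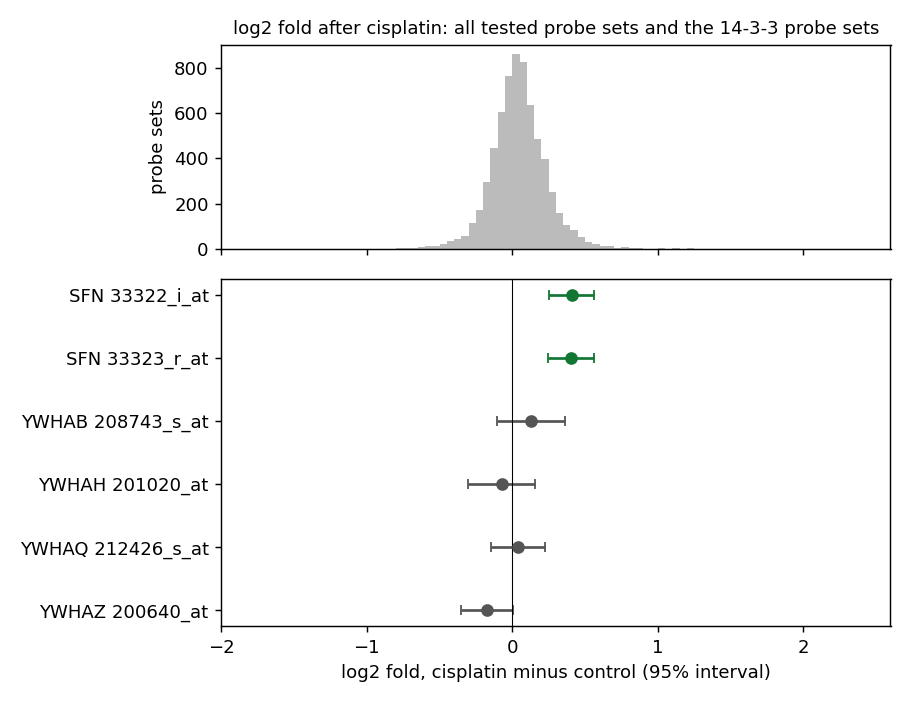
Upper panel, number of tested probe sets in each bin of log2 fold (cisplatin minus control, bins of 0.05). Lower panel, log2 fold with its 95% interval for each probe set of the 14-3-3 genes, from 3 arrays a group. Both SFN probe sets (green) lie at 0.41, in the right flank of the histogram, and the 4 YWHA probe sets (grey) between -0.17 and 0.13, with YWHAZ in the left flank.

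The log2 folds of the 4 YWHA genes ran from -0.17 to 0.13 with a median of -0.02, beside a median of 0.04 over all tested probe sets. In limma with Benjamini-Hochberg adjustment over all probe sets, 0 of the 6 probe sets of the family passed, and 2, both of SFN, had an unadjusted p under 0.05. Over all tested probe sets 0.29% passed and 5.03% had an unadjusted p under 0.05. Both SFN probe sets passed in 4 of 17 alternative settings. These were array weights, the ACTB 3′/5′ ratio as a covariate, without control 1, and without control 1 and cisplatin 2. Groups that did not overlap were found for 3 of the 6 probe sets, both of SFN with the treated arrays higher (as for 7.42% of all tested probe sets) and that of YWHAZ with them lower (as for 3.57%). Since the comparison was used in choosing SFN, nothing is read from these counts.

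Within each array, SFN was set against the mean of the 4 YWHA genes on the log2 scale, a difference that does not move when an array is brightened or dimmed as a whole. For 33322_i_at this within-array difference was 1.58, 1.33 and 1.38 for controls 1 to 3, and for the treated arrays 1.81, 1.94 and 1.82. The level of the difference depends on the probes, and its shift between the groups was 0.43 (SE 0.09, 4 residual degrees of freedom). For 33323_r_at the shift was 0.43 (SE 0.08), from 0.90 ± 0.12 to 1.32 ± 0.06. The treated arrays lay above all control arrays on both probe sets, with control 1 again the nearest control. Taken gene by gene, the log2 fold of SFN on 33322_i_at exceeded that of YWHAB by 0.28, that of YWHAQ by 0.37, that of YWHAH by 0.48 and that of YWHAZ by 0.58.

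**Figure D3:**
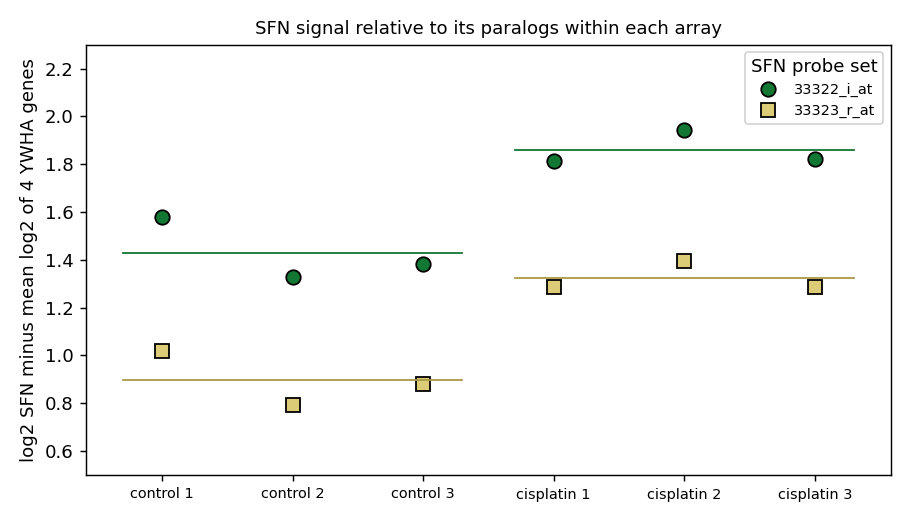
Difference between log2 SFN and the mean log2 of the 4 YWHA genes (vertical axis, log2 units) on each of the 6 arrays, for the SFN probe sets 33322_i_at (green circles) and 33323_r_at (yellow squares), with lines at the group means. The cisplatin arrays lie at 1.81 to 1.94 for 33322_i_at, above the 1.33 to 1.58 of the control arrays.

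The log2 folds kept within the spread of the replicates under other ways of handling the arrays. Over 17 alternative settings the log2 fold of the SFN probe sets ran from 0.33 to 0.48 and that of the YWHA probe sets from -0.25 to 0.20. Settings that change only the filter or the intensity trend, or add the replicate number as a block, cannot move a log2 fold here. They repeat the reported value. The lowest SFN values came from centring each array on its median, which gave 0.34 and 0.33. YWHAZ was below 0 and YWHAB above 0 under all 17 settings. YWHAH was below 0 in 16, and reached 0.000388 without control 1 and cisplatin 2, and YWHAQ was above 0 in 14.

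**Figure D4:**
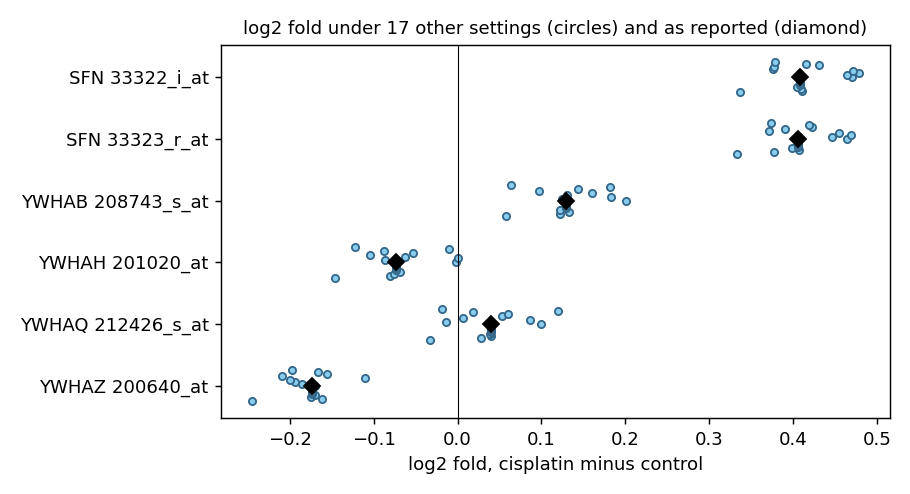
log2 fold (cisplatin minus control, horizontal axis) of each 14-3-3 probe set as reported (diamond) and under 17 alternative settings (circles). The SFN values run from 0.33 to 0.48 and lie to the right of all YWHA values, which run from -0.25 to 0.20, and those of YWHAQ and YWHAH lie on both sides of 0.

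The start regions of the genes differ in base composition, a feature that played no part in choosing them. RefSeq promoters (GRCh38.p14), 250 bases before to 50 after the start, were at hand for 6 of the 7 genes. Methylation of CpG pairs is a known way in which SFN is silenced in some carcinomas, and methylation was not measured here. The windows end 50 bases after the start, so CpG pairs further into the gene are not counted. The stretches of 250 bases before the start of SFN (chr1:26862899-26863148, plus strand) and of YWHAQ (chr2:9630998-9631247, minus strand) are shown 5′ to 3′, YWHAQ as an example of its paralogs, because they differ in the number of CpG pairs, which are in capitals.
SFN: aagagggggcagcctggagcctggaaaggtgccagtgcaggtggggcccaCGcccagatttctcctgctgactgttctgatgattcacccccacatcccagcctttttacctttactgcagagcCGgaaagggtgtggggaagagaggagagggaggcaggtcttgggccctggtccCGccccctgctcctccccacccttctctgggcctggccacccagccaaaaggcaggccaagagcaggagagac
YWHAQ: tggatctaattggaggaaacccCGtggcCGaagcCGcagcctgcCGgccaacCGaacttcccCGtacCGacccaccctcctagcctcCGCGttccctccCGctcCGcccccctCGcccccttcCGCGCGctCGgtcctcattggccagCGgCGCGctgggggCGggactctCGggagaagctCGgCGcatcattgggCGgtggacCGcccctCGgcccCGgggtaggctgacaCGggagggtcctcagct

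Before its start SFN has 3 CpG pairs in 250 bases and YWHAQ 28. In the full windows of 300 bases SFN has 7, against 29 for YWHAB, 32 for YWHAG, 34 for YWHAQ, 36 for YWHAE and 44 for YWHAH. The observed over expected CpG ratio was 0.23 for SFN and 0.83 to 1.09 for the 5 YWHA genes, with a median of 0.58 over 35116 promoters. Of those promoters 36.8% have fewer CpG pairs than SFN, and 75.8% to 95.8% have fewer than the YWHA genes. The GC box GGGCGG, searched on both strands, occurs in all 6 windows, from 1 time in YWHAE to 4 times in YWHAB, YWHAG and YWHAQ, with 2 in SFN, and in 45.0% of all promoters. TATAAA, on both strands, occurs in 1 of the 6, that of YWHAH, and in 11.5% of all promoters. The consensus p53 half-site, on both strands and with no mismatch, occurs in 0 of the 6 and in 6.63% of all promoters, which says only that those letters are not in these windows.

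Genes around 14-3-3 sigma were described from lists that do not hold the family itself. The lists were chosen with earlier results of these data known. Their counts are therefore a description, and nothing is read from them against the share over all probe sets. Of 9 tested p53 targets of cell cycle arrest, 5 rose and 4 did not pass, where 0.213% of all tested probe sets rose, and the list median log2 fold was 0.77 beside 0.04 over all genes. CDKN1A, the inhibitor of cyclin-dependent kinases that acts beside SFN in arrest, rose by 2.42 on the log2 scale (adjusted p = 4.74e-06), and PPM1D, the phosphatase that ends damage signalling, by 1.56 (adjusted p = 0.00122). GADD45A, a damage-induced arrest gene, rose by 1.24 (adjusted p = 0.0333), SESN1, a sestrin, by 1.11 (adjusted p = 0.00870) and CCNG1, cyclin G1, by 0.77 (adjusted p = 0.0294). The log2 fold of 0.41 of SFN was below that of each of these 5.

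The polo-like kinase gene PLK2 read 213, 277 and 260 in controls 1 to 3, and 425, 341 and 322 in the treated cells, with a log2 fold of 0.51 (SE 0.15, adjusted p = 0.535). ZMAT3, a zinc finger gene, went from 35.5 ± 6.51 to 51.1 ± 1.16 (log2 0.42, adjusted p = 0.868). In both genes the groups did not overlap, and their log2 folds were near that of SFN. PLK3 had a log2 fold of -0.14 and RPRM, the arrest gene reprimo, 0.02. CDKN1A and PPM1D passed under all 17 settings, SESN1 in 12, GADD45A in 9 and CCNG1 in 8. GADD45A and SESN1 lost their calls without control 2, control 3, cisplatin 1 or cisplatin 3, and CCNG1 without each array but control 1. All 3 also lost them with the replicate number as a block, and GADD45A and CCNG1 also with median centring, without a filter and without the intensity trend.

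In a list built around entry into mitosis, 2 of 11 tested genes fell and 9 did not pass, where 0.0762% of all tested probe sets fell. The list median log2 fold was -0.28. The spindle kinase gene AURKA had a log2 fold of -0.73 (SE 0.09) and an adjusted p of 0.00870, and the cyclin gene CCNB2 one of -0.63 (SE 0.10) and an adjusted p of 0.0324. Without control 1 and cisplatin 2 together 1 of the 11 fell, AURKA, and of the p53 targets the same 5 rose. AURKA passed in 12 of the 17 settings and was lost without control 2, control 3 or cisplatin 1, without the intensity trend and with the block. CCNB2 passed in 7, and was lost without each array but control 1, without control 1 and cisplatin 2 together, with median centring, without a filter, without the trend and with the block.

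Known partners of 14-3-3 proteins in this list include the CDC25 phosphatases, which remove the inhibitory phosphates from CDK1. CDC25C, the classic client, read 162, 168 and 164 in controls 1 to 3, and 105, 125 and 138 in the treated cells (log2 -0.40, SE 0.14, adjusted p = 0.733). CDC25B read 1128, 1133 and 1055, and 780, 870 and 881, on the same arrays (log2 -0.39, SE 0.09, adjusted p = 0.245). All treated arrays of both genes lay below all controls, without passing the threshold, while the groups of CDC25A overlapped (194 ± 12.4 and 172 ± 11.2, log2 -0.16). CDK1, the mitotic kinase that SFN is known to bind, was at 1023 ± 104 and 1025 ± 100.2, a log2 fold of 0.00 (SE 0.11). PLK1, which activates CDC25C, went from 230 ± 42.9 to 122 ± 26.7 (log2 -0.86, adjusted p = 0.187). CDK2 had a log2 fold of 0.11 and CDK4 one of 0.03.

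**Figure D5:**
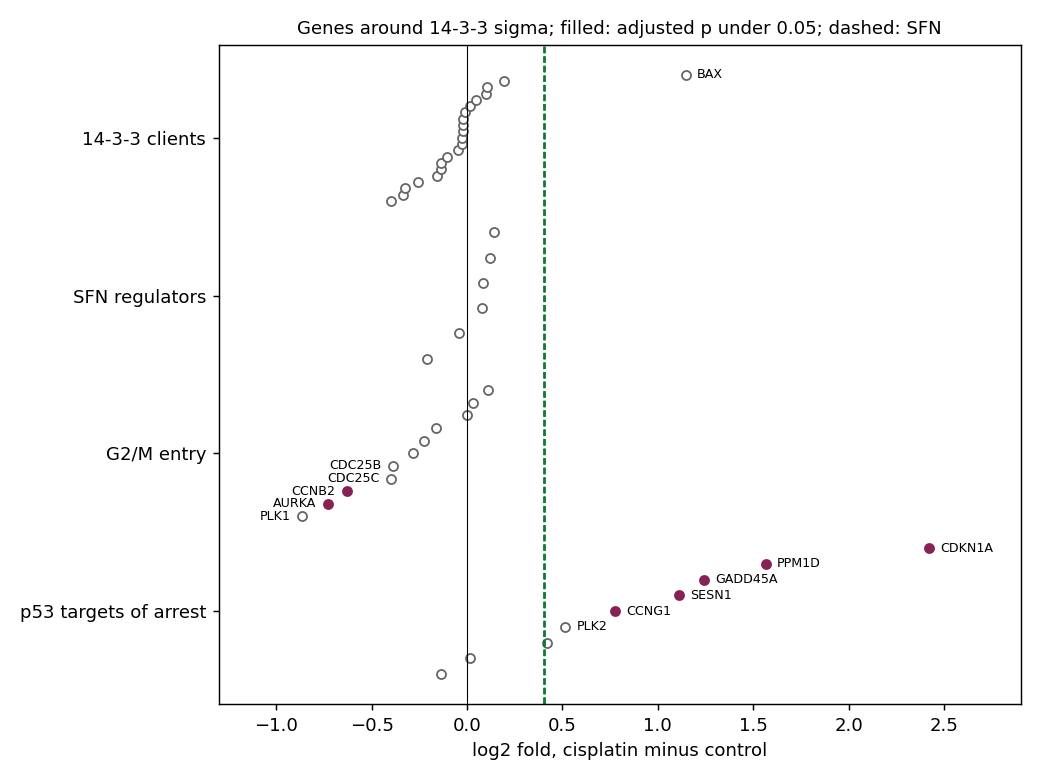
log2 fold (cisplatin minus control) of each tested gene in 4 lists around 14-3-3 sigma, 1 point a gene, filled where the adjusted p in limma was under 0.05, with the 2 SFN probe sets as dashed lines at 0.41. The 5 filled p53 targets lie to the right of SFN, the 2 filled mitotic genes to the left of 0, and no client or regulator is filled.

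Other clients, the phosphoproteins known to be held by 14-3-3 proteins, showed 0 of 21 tested genes past the threshold in limma and 1 with an unadjusted p under 0.05, beside 0.29% and 5.03% of all tested probe sets. With array weights, and with the ACTB 3′/5′ covariate, 1 passed. Their median log2 fold was -0.03, and -0.12 to 0.00 over the 17 settings. The gene with the unadjusted p was BAX, the pore former of apoptosis that 14-3-3 proteins hold in the cytoplasm. Its controls 1 to 3 read 38.6, 45.4 and 24.0, and its treated arrays 72.9, 100.7 and 105.3 (log2 1.15, SE 0.21, adjusted p = 0.0816), with no overlap. The log2 fold was 0.19 for PFKFB2, an enzyme that tunes glycolysis, while the signalling adaptor gene GAB2 had one of -0.33 and the insulin receptor substrate gene IRS1 one of -0.40. The transcription factor genes FOXO1 (-0.03) and FOXO3 (0.02) and the Hippo effector gene YAP1 (-0.02) were near 0.

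Known regulators of SFN showed 0 of 6 tested genes past the threshold in limma and 0 with an unadjusted p under 0.05, beside the same 0.29% and 5.03%. Their median log2 fold was 0.08, and its sign turned without control 1 (-0.17), without cisplatin 1 (-0.09), without control 1 and cisplatin 2 (-0.09), with array weights (-0.10) and with the covariate (-0.17). TRIM25, which encodes a ubiquitin ligase for 14-3-3 sigma, was dim (35.7 ± 6.74 and 29.2 ± 5.43, log2 -0.21, SE 0.19). The damage kinase genes CHEK2, ATR and ATM had log2 folds of 0.14, 0.12 and -0.04 (SE 0.15, 0.31 and 0.37). BRCA1 had 0.08 and the DNA methyltransferase gene DNMT1 also 0.08.

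The 8 genes most like SFN across the 6 arrays were found by Pearson's r between log2 values and those of 33322_i_at, over 5815 other tested genes. With 6 arrays in 2 groups, 73 genes (1.26%) had r above 0.9, and r is given as a description. They were PI4KB (r = 0.995, rho = 0.94), a phosphatidylinositol kinase gene, CABYR (0.992, 0.89), a calcium-binding protein gene, and RRM2 (0.986, 0.89), the small subunit of ribonucleotide reductase. IFT27 (0.978), a gene of ciliary transport, CCL21 (0.976), a chemokine gene, BCL2L1 (0.974), an inhibitor of apoptosis, MAPK7 (0.973), a MAP kinase gene, and EPHB4 (0.970), an ephrin receptor gene, followed. RRM2 was at 1703 ± 54.1 and 1886 ± 47.9 (log2 0.15, SE 0.07) and BCL2L1 at 154 ± 3.29 and 190 ± 8.05 (log2 0.28, SE 0.12), smaller differences than that of SFN. CABYR had a log2 fold of 0.41 (SE 0.13) and CCL21 0.40 (SE 0.18), about that of SFN, EPHB4 0.36, MAPK7 0.30, PI4KB 0.25 and IFT27 0.17. CCL21 lay at 19.4 ± 3.50 and 29.5 ± 2.25, near the offset, which draws its log2 fold towards 0 more than that of SFN. With the arrays centred on their medians 5 of the 8 stayed among the 8 most alike, and after quantile normalization 1 did.

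Within the family, the deviations of the arrays from their group means followed each other for some genes. Over the 6 arrays, r between these deviations was 0.97 for the 2 SFN probe sets, 0.80 for YWHAH and YWHAQ and 0.71 for YWHAB and YWHAQ. Of the other YWHA pairs, YWHAB and YWHAZ had 0.66 and YWHAB and YWHAH 0.54. YWHAQ and YWHAZ had 0.28, and YWHAH and YWHAZ -0.22. For SFN on 33322_i_at r was 0.33 with YWHAB, 0.35 with YWHAH, -0.14 with YWHAQ and -0.20 with YWHAZ. On 33323_r_at r was 0.36, 0.53, 0.02 and -0.29 in the same order. All of these share the 6 hybridisations.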

How the data were processed

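Per the labels' protocols, total RNA was made into biotin-labelled target with an oligo-dT primer. The authors deposited probe set intensity values from -512.3 to 9153, of which 723 were at or below 0. How probe sets were summarised and arrays scaled is not given in the sources used here. Values were floored at 0, 11.8 (the 10th percentile of positive values) was added and log2 taken. The 75th percentiles spanned 0.15 on that scale, so no further scaling was applied. Left out were 47 control probe sets and those below the 25th percentile of mean log2, and 6559 were tested in limma 3.58.1 (R 4.3.3; lmFit, eBayes with intensity trend), two-sided, with Benjamini-Hochberg adjustment at 0.05 over all of them. All 6 probe sets of the family passed this filter. A gene of a list was represented by its brightest probe set.

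Symbols came from the platform's probe table (7840 probe sets with 1 symbol, 388 with several, 518 with none), of which 7838 matched RefSeq. All genes of the family were named, with the brightest markers and the 8 genes most like SFN. List members past the threshold were named with the 2 highest and 2 lowest others. BRCA1, DNMT1, FOXO1, FOXO3, YAP1, CDC25A, CDC25B, CDK1, EPCAM, CDH1, SFTPB and NKX2-1 were chosen after their values were seen. The family and the lists were chosen with earlier results of these data known. The planned comparison of protein sequences was not run here. The model fit was tested on simulated data. Exact tests of 3 against 3 cannot go below 0.1 and were not used. The labels give the arrays of a group as separate samples, and precision is limited by how many arrays there are. Plots used matplotlib 3.10.9 (Python 3.11.15).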

Additional observations from a re-analysis of the deposited data

How the results depend on the processing

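Over 17 alternatives all 102 log2 folds of the 14-3-3 probe sets stayed within 1 SD of the reported value. The changes of filter, of trend and of replicate block cannot move a log2 fold here, so their agreement was fixed in advance. Against 19 calls over all probe sets there were 11 after median centring, 8 with a variance prior that had no intensity trend, 44 with array weights and 47 with the ACTB 3′/5′ ratio as a covariate; leaving out each array gave 6 to 18. Against 7 calls in the 4 lists there were 4 with centring, 4 without a filter and 3 without the trend, and leaving out each array gave 2 to 7. The cause was not tested. With the replicate number as a replicate block 5 probe sets passed over all and 2 in the lists. The log2 folds cannot move under this block, because every replicate number has an array in both groups. The deviations of equally numbered arrays correlated at -0.56, -0.31 and -0.12, and the labels do not say that they share an experiment. The likeness of genes to SFN under other scalings was computed after the data were seen. Signal over background limits the dim genes, such as TRIM25, CCL21 and ZMAT3, and also BAX and SESN1 on the control arrays. It does not limit the 14-3-3 probe sets. The log2 fold of SESN1 was 0.79 with an offset 4 times as large and 1.29 with no offset and a floor of 1.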
